A study of Mus musculus with 8 samples.

Results

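The 10 genes described here mark the mural cells of blood vessels, that is, the vascular smooth muscle cells and the pericytes. They were found by symbol in a table of 47643 genes. Acta2, Smtn, Tagln, Myh11, Myl9, Cnn1 and Des are 7 genes of the contractile apparatus of smooth muscle. Pdgfrb, Rgs5 and Kcnj8 are 3 genes used as markers of pericytes. All 10 passed the filter on low counts, and none was at 0 in any library.

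Arteries and arterioles are wrapped by smooth muscle cells, which shorten when myosin, switched on by phosphorylation of its regulatory light chain, pulls on actin filaments. Capillaries of brain and spinal cord carry pericytes instead, which hold little contractile protein. Endothelial cells recruit both cell types by releasing the growth factor PDGF-B, read by the receptor Pdgfrb. Serum response factor, with myocardin and related cofactors, drives many contractile genes by binding a short DNA element, the CArG box.

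The data are RNA-seq libraries of whole spinal cord, each made from 1 of 8 C57BL/6 mice. The genotype label gives 4 animals as heterozygous and 4 as homozygous, without spelling out the alleles. The gene to be deleted was Arf1, a GTPase that recruits coat proteins to Golgi membranes. Tamoxifen, given by intraperitoneal injection at 100 mg/kg, was to delete it. This dose is recorded alike for all 8 animals, heterozygous and homozygous. The sources used here do not give the Cre driver, nor say separately whether the heterozygous mice were injected. Mice were 2 to 10 months old, with no age or sex for single animals. The p-values measure the spread between these animals. A difference in age or sex between the groups could not be told apart from one of genotype.

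Libraries held 26321522 to 37879426 expected counts. Arf1 was at 334, 296, 322 and 303 CPM (counts scaled to a common library total) in heterozygous replicates 1 to 4. Homozygous replicates 2, 3 and 4 held 22.5, 22.8 and 39.9 CPM. The library labelled homozygous replicate 1 held 307 CPM, within the heterozygous range, so the fold change of each of the 10 genes is given with 8 libraries and with the 7 that leave this library out. Heterozygous replicate 1 also stood apart: 12 markers of skeletal muscle summed to 726 CPM there, against 25.5 to 37.9 CPM in the other heterozygous libraries and 32.3 to 108 CPM in the homozygous ones. All 10 markers of spinal cord tissue were detected in every library, with sums of 8833 to 15401 CPM. Ribosomal bases made up 0.10% to 0.34% of the bases, except 2.44% in homozygous replicate 3, and the RNA integrity number was 9 except for 8 in homozygous replicate 4.

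Per length, as TPM (transcripts scaled to a fixed total per library), Rgs5 was the highest of the 10 genes in the heterozygous cords at 61.3 ± 7.53 TPM (SD, n = 4). Its lowest library, at 52.1 TPM, lay above the highest of the next gene, Myl9, which ranged from 16.9 to 31.7 TPM. Acta2 followed at 16.5 ± 4.96 TPM and Tagln at 13.6 ± 4.58 TPM. Pdgfrb was at 6.65 ± 1.01 TPM, Des at 5.67 ± 7.83 TPM, Smtn at 5.52 ± 0.998 TPM, Myh11 at 3.76 ± 1.31 TPM and Kcnj8 at 3.54 ± 0.518 TPM. From Myl9 to Kcnj8 each gene's range of libraries overlapped that of the next in the order. Within every heterozygous library, however, Myl9 was above Acta2, Acta2 above Tagln, Tagln above Pdgfrb, and Smtn above Myh11. The order of Pdgfrb and Des, of Des and Smtn, and of Myh11 and Kcnj8 changed between the heterozygous libraries. Cnn1 was lowest, at 0.31 to 0.96 TPM, below every library of Kcnj8. In the homozygous cords Rgs5 and Myl9 were again first and Cnn1 last, and the mean of Acta2, 5.14 TPM, lay beside that of Pdgfrb, 5.16 TPM. Their ranges overlapped, as did those of Tagln (3.73 to 21.2 TPM) and Myl9 (10.4 to 15.7 TPM). Within libraries, Acta2 was above Pdgfrb, and Tagln above Myl9, in homozygous replicate 4 alone. These places in the order thus changed between libraries.

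All 7 contractile genes had lower means in the homozygous cords, Des only through heterozygous replicate 1. Lower means were also found for 2 of the 3 pericyte genes, Rgs5 and Pdgfrb. Groups did not overlap, with lower homozygous levels, for 2 of the 7 contractile genes, Acta2 and Smtn. The same held for 1 of the 3 pericyte genes, Rgs5, against 4.67% of all genes. With 8 libraries, 0 of the 10 genes passed edgeR's quasi-likelihood test at an adjusted p of 0.05, where 0% of all 16511 genes tested passed. At an unadjusted p under 0.05 stood 5 of the 10 genes, namely Acta2, Smtn, Myh11, Myl9 and Rgs5, against 16.8% of all genes, and all 5 were lower, against 8.9% of all genes. DESeq2 called 4 of the 10, Acta2, Smtn, Myl9 and Rgs5, against 4.11% of all genes, and limma-voom called 0. With 7 libraries, edgeR called Smtn alone, 1 of 10 against 1.22% of all genes, with 6 of the 10 at an unadjusted p under 0.05 against 19.5%. DESeq2 called 5 of the 10 with 7 libraries, the same 4 and Myh11, against 6.54% of all genes. A lower level in bulk tissue can come from fewer cells of a type or from less RNA per cell, and these cannot be told apart here.

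**Figure D1:**
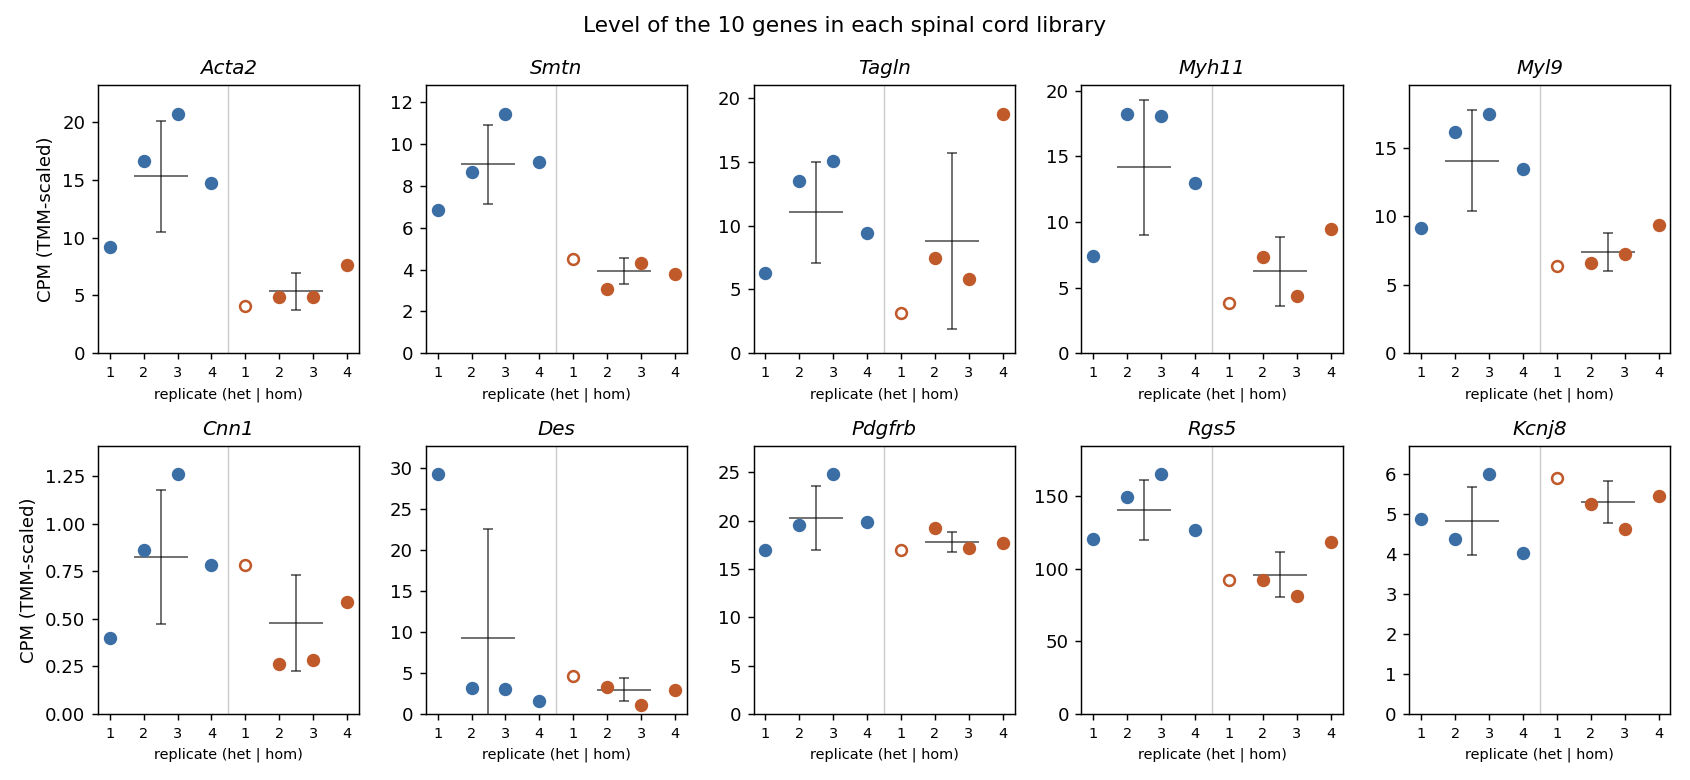
Level of each of the 10 genes in each library, in CPM (vertical axes start at 0). Blue points are heterozygous and orange points homozygous libraries, numbered by replicate, with the open circle for the library labelled homozygous replicate 1; horizontal bars are means and vertical bars the SD, n = 4 each. The heterozygous and homozygous points of Acta2, Smtn and Rgs5 do not overlap, and Des in heterozygous replicate 1 and Tagln in homozygous replicate 4 are the highest points of their panels.

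Smtn encodes smoothelin, a protein of the actin filaments of contractile smooth muscle. It lies on the minus strand at chr11:3517523-3540612 (GRCm38), 55.7 Mb from Arf1 on the same chromosome. Smtn was at 6.87, 8.68, 11.5 and 9.16 CPM in heterozygous replicates 1 to 4 and at 4.49, 3.09, 4.31 and 3.78 CPM in homozygous replicates 1 to 4. Every homozygous library was below every heterozygous one. The means were 9.04 ± 1.89 and 3.92 ± 0.63 CPM (SD, n = 4 each), and the log2 fold change was -1.20 (SE 0.17, edgeR adjusted p = 0.0734). With the 7 libraries, Smtn fell by 1.28 on the log2 scale (SE 0.19, edgeR adjusted p = 0.0223). That call was lost on leaving out heterozygous replicate 4 (edgeR adjusted p = 0.0620), homozygous replicate 2 (0.0856) or homozygous replicate 3 (0.0724), with log2 fold changes of -1.27, -1.16 and -1.39.

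Acta2 encodes smooth muscle alpha-actin, the thin filament of the contractile apparatus, and lies on the minus strand at chr19:34241090-34255590. It was at 9.16, 16.6, 20.7 and 14.7 CPM in the heterozygous libraries and at 4.05, 4.88, 4.84 and 7.67 CPM in the homozygous ones. The groups did not overlap, and the lowest value of all was in the library labelled homozygous replicate 1, whose Arf1 was at the heterozygous level. The log2 fold change was -1.52 (SE 0.27, edgeR adjusted p = 0.0974), and -1.40 (SE 0.29, edgeR adjusted p = 0.0623) with 7 libraries. RSEM divides reads shared by near-identical actin genes, so the split between Acta2 and its close copies is less certain in heterozygous replicate 1, where skeletal muscle actin was high.

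Myl9, the regulatory light chain of smooth muscle myosin (chr2:156775420-156781658, plus strand), was at 9.16, 16.2, 17.5 and 13.4 CPM in the heterozygous libraries. The homozygous libraries held 6.35, 6.59, 7.25 and 9.36 CPM, so the groups overlapped by 1 library on each side, heterozygous replicate 1 and homozygous replicate 4. The log2 fold change was -0.93 (SE 0.20, edgeR adjusted p = 0.12), and -0.86 (SE 0.22, edgeR adjusted p = 0.0931) with 7 libraries. Myh11, the smooth muscle myosin heavy chain (chr16:14194535-14291372, minus strand), was at 7.37, 18.3, 18.1 and 12.96 CPM in the heterozygous and at 3.84, 7.29, 4.35 and 9.49 CPM in the homozygous libraries. Homozygous replicate 4 lay above heterozygous replicate 1, and the other 3 heterozygous libraries lay above all homozygous ones. Its log2 fold change was -1.18 (SE 0.37, edgeR adjusted p = 0.184), and -1.0 (SE 0.37, edgeR adjusted p = 0.2) with 7 libraries.

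Heterozygous replicate 1, the library rich in skeletal muscle markers, was the lowest heterozygous library for Acta2, Smtn, Tagln, Myh11, Myl9 and Cnn1. It was also the lowest for Rgs5 and Pdgfrb, though not for Des or Kcnj8. Likewise it held the lowest heterozygous sums of endothelial, fibroblast and Schwann cell markers (294, 128 and 238 CPM). Leaving it out of the 8, edgeR called 3 of the 10 genes against 0.241% of all genes. Acta2 then fell by 1.70 (edgeR adjusted p = 0.0298), Smtn fell by 1.31 (0.0275) and Myl9 fell by 1.09 (0.0327) on the log2 scale. In the 6 libraries that the authors' gene tables hold, which leave out heterozygous replicate 1 and the library labelled homozygous replicate 1, edgeR called the same 3 genes, against 1.41% of all genes. The edgeR adjusted p there was 0.0215 for Acta2, 0.0144 for Smtn and 0.0264 for Myl9, and Myh11 did not pass (0.0759). The authors' deposited table of their comparison lists 185 genes, 110 of them lower, and 4 of these are contractile genes. No share over all genes was computed for that list. In the authors' deposited table the log2 fold changes were -1.65 for Acta2 (false discovery rate 4.11e-09), -1.47 for Smtn (6.57e-10), -1.28 for Myh11 (0.000577) and -1.09 for Myl9 (2.89e-06). These false discovery rates come from the authors' own fit, which was not reproduced here. They cannot be compared directly with the edgeR adjusted p values above. Of the other 6 genes, the authors' deposited table lists none.

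The promoters of 7 of the 10 genes could be matched to RefSeq sequence (GRCm38.p6), those of Acta2, Smtn, Myl9, Cnn1, Des, Rgs5 and Kcnj8. The CArG box was searched on both strands from 250 bases before to 50 bases after the start; it reads the same on either strand. An exact box stood in 1 of the 7, Myl9, at 161 bases before the RefSeq start, and in 1.63% of 32851 promoters. Allowing 1 of the middle letters to be C or G, a wider form chosen after the promoters were seen, Acta2 held it at 84 and at 34 bases and Myl9 also at 99 bases before the start; 9.98% of promoters hold this form. Smtn, the gene with the lowest p, held neither form in this window, nor did Cnn1, Des, Rgs5 and Kcnj8. The stretches below are those found to hold a box, shown with it in capitals, 5′ to 3′ on the gene's strand; in GENCODE M21 both Acta2 stretches lie within an annotated exon, since one transcript starts earlier.
Myl9, exact, chr2:156775293-156775322, plus strand: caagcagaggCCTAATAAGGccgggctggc
Myl9, wider form, chr2:156775355-156775384, plus strand: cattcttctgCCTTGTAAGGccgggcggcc
Acta2, wider form, chr19:34255438-34255467, minus strand: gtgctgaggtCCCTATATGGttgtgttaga
Acta2, wider form, chr19:34255388-34255417, minus strand: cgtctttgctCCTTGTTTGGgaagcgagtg

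Tagln, Cnn1 and Des did not separate the genotypes. Tagln, or SM22, an actin-binding protein of smooth muscle (chr9:45929619-45936058, minus strand), was at 6.31, 13.5, 15.04 and 9.45 CPM in the heterozygous and at 3.13, 7.48, 5.84 and 18.8 CPM in the homozygous libraries. Homozygous replicate 4 was the highest of all 8, and the other 3 homozygous libraries overlapped only with heterozygous replicate 1. The log2 fold change of Tagln was -0.33 (SE 0.55, edgeR adjusted p = 0.789). With 7 libraries it was -0.04 (SE 0.47), its sign turned in 4 of the 7 fits that left out 1 more library, and without homozygous replicate 4 it was -0.74 (edgeR adjusted p = 0.296).

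Cnn1, calponin, which binds actin and slows myosin in smooth muscle (chr9:22099216-22109630, plus strand), rested on 7 to 46 counts per library. It was at 0.40, 0.86, 1.26 and 0.79 CPM in the heterozygous and at 0.78, 0.26, 0.28 and 0.59 CPM in the homozygous libraries, which overlapped. The log2 fold change was -0.74 (SE 0.42, edgeR adjusted p = 0.395), and -1.10 (SE 0.45, edgeR adjusted p = 0.215) with 7 libraries.

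Des encodes desmin, the intermediate filament of all muscle types, which pericytes also hold (chr1:75360329-75368579, plus strand). It was at 29.2 CPM in heterozygous replicate 1 and at 3.22, 3.10 and 1.60 CPM in the other heterozygous libraries. The homozygous libraries held 4.65, 3.27, 1.13 and 2.87 CPM, from below to above the range of those 3. The highest homozygous value was in the library labelled homozygous replicate 1, which was also the homozygous library with the most skeletal muscle RNA, 108 CPM of its markers. With all 8 libraries the log2 fold change of Des was -1.62 (SE 1.03, edgeR adjusted p = 0.464), with 7 libraries it was -1.93 (SE 1.26, 0.454), and without heterozygous replicate 1 it was 0.20 (0.854). The part of skeletal muscle RNA in the Des values was not tested.

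**Figure D2:**
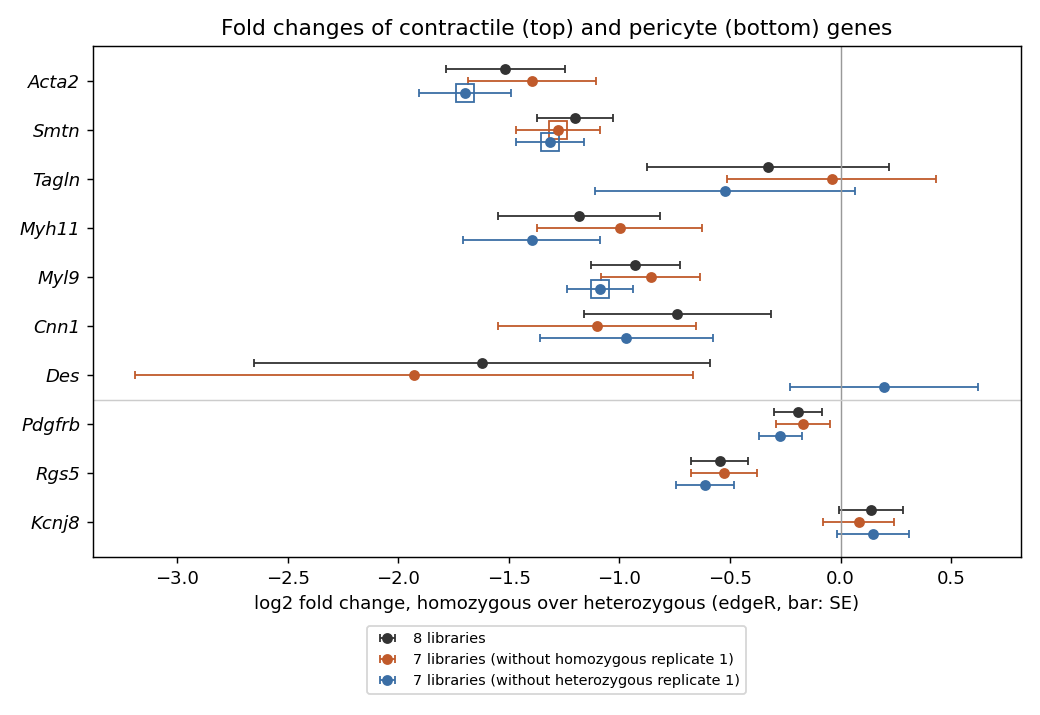
Log2 fold change, homozygous over heterozygous, of each gene (points, with bars for the SE) in 3 edgeR fits: all 8 libraries (black), without the library labelled homozygous replicate 1 (orange) and without heterozygous replicate 1 (blue). Squares mark an adjusted p under 0.05. Acta2, Smtn, Myh11 and Myl9 lie between -1.70 and -0.86 in every fit, while Des moves from -1.62 to 0.20 when heterozygous replicate 1 is left out.

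Of the pericyte genes, Rgs5 alone had groups that did not overlap. Rgs5, a brake on G protein signalling made by pericytes and also by arterial smooth muscle (chr1:169655501-169695813, plus strand), was at 121, 149, 165 and 126 CPM in the heterozygous libraries. The homozygous libraries held 92.0, 92.1, 81.2 and 118 CPM, each below the lowest heterozygous library, with homozygous replicate 4 just beneath it. The means were 140 ± 20.5 and 95.9 ± 15.7 CPM (SD, n = 4 each), and the log2 fold change was -0.55 (SE 0.13, edgeR adjusted p = 0.13). With 7 libraries it was -0.53 (SE 0.15, edgeR adjusted p = 0.11), and on leaving out homozygous replicate 4 as well, edgeR called Acta2, Smtn and Rgs5 (adjusted p = 0.0465, 0.0297 and 0.0367), 3 of 10 against 2.38% of all genes.

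Pdgfrb, the receptor by which mural cells are recruited (chr18:61045150-61085061, plus strand), was at 16.9, 19.6, 24.8 and 19.8 CPM in the heterozygous and at 16.9, 19.2, 17.1 and 17.7 CPM in the homozygous libraries. Heterozygous replicates 2, 3 and 4 stood above all homozygous libraries, by less than 1 CPM for replicates 2 and 4, and replicate 1 was level with the lowest of them. The log2 fold change was -0.19 (SE 0.11, edgeR adjusted p = 0.388), and -0.17 (SE 0.12, 0.467) with 7 libraries. Kcnj8, the pore of an ATP-sensitive potassium channel (chr6:142564837-142571614, minus strand), was at 4.89, 4.39, 6.00 and 4.03 CPM in the heterozygous and at 5.90, 5.25, 4.63 and 5.45 CPM in the homozygous libraries. These overlapped almost fully, with a log2 fold change of 0.14 (SE 0.15, edgeR adjusted p = 0.65), or 0.08 (SE 0.16, 0.806) with 7 libraries. Its sign turned on the log2 TPM scale. That scale set the median over all genes at -0.14 with 8 libraries. Over the 10 genes, groups that did not overlap and were lower in the homozygous cords were found for 3, against 4.67% of all genes.

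Set against each other within a library, the contractile genes were on average lower relative to the pericyte genes in the homozygous cords. The mean log2-CPM of the 7 contractile genes minus that of the 3 pericyte genes was -1.79, -1.59, -1.69 and -1.83 in the heterozygous libraries and -2.60, -2.60, -2.70 and -2.14 in the homozygous ones. Every homozygous value lay below every heterozygous value, with homozygous replicate 4 nearest to them, but this separation rests on Des in heterozygous replicate 1. Without Des the values were -2.16, -1.38, -1.44 and -1.52 in the heterozygous and -2.68, -2.59, -2.48 and -2.001 in the homozygous libraries, so heterozygous replicate 1 lay below homozygous replicate 4. The means with Des were -1.73 ± 0.11 and -2.51 ± 0.25 (SD, n = 4 each), a difference of -0.78, or -0.75 with 7 libraries. Without Des they were -1.63 ± 0.36 and -2.44 ± 0.30, a difference of -0.81. The contractile mean differed by -0.98 between the genotypes and the pericyte mean by -0.19, in the same direction. This is a description, with no test, since the genes were chosen with results of these data known.

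As ratios of CPM, 8 of the 21 pairs of a contractile and a pericyte gene were lower in every homozygous library than in any heterozygous one, and the other 13 overlapped. The 8 were all 3 pairs with Acta2, all 3 with Smtn, and Myl9 over Pdgfrb and over Kcnj8. No pair with Tagln, Myh11, Cnn1 or Des was among them. Acta2 and Smtn did not overlap between the groups in CPM by themselves, so their pairs in part repeat those results. The share over pairs of all genes was not computed, and the count is a description. The Acta2 level was 7.61% to 12.6% of the Rgs5 level in CPM in the heterozygous libraries and 4.40% to 6.48% in the homozygous ones. For Smtn over Pdgfrb the ratio of CPM was 0.406 to 0.462 and 0.161 to 0.265. Both pairs were taken from the 8, so the place of the library labelled homozygous replicate 1 in them was fixed by that choice.

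**Figure D3:**
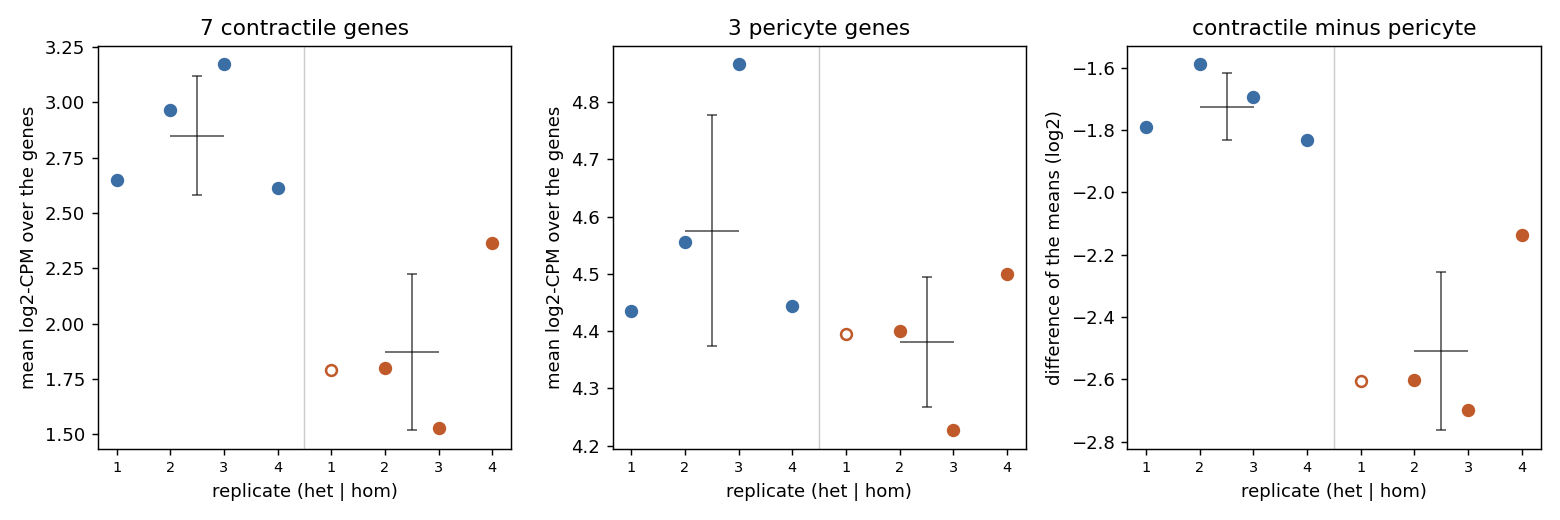
Mean log2-CPM per library of the 7 contractile genes (left) and the 3 pericyte genes (middle), and the first minus the second (right). Points are libraries, coloured and marked as in the plot of levels, horizontal bars are means and vertical bars the SD, n = 4 each; vertical axes do not start at 0. The difference lies at -1.83 to -1.59 in the heterozygous and at -2.70 to -2.14 in the homozygous libraries; without Des, not drawn, these ranges are -2.16 to -1.38 and -2.68 to -2.001 and overlap.

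Other genes of the same pathways were taken from lists, given here by counts beside the median log2 fold change of all genes, which was 0.00 in both fits. Of 22 other contractile and regulatory genes of smooth muscle, 21 were tested, 17 had a negative fold change and 7 had an unadjusted p under 0.05, all lower, where 8.9% of all genes did so, while 0 passed the adjusted threshold in either fit. Their median log2 fold change was -0.27 in both fits, against -1.18 with 8 and -1.10 with 7 libraries for the 7 contractile genes above. The smallest p was that of Filip1l, related to a filamin-binding protein, at 4.32 ± 0.58 and 2.76 ± 0.26 CPM (SD, n = 4 each, edgeR adjusted p = 0.118), with groups that did not overlap.

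In whole cord, genes that control smooth muscle transcription had fold changes near the median of all genes. Of 12 listed, 10 were tested, their median log2 fold change was -0.04 and 0 had an unadjusted p under 0.05. Srf, serum response factor itself, was at 49.1 ± 1.43 and 48.5 ± 5.56 CPM (SD, n = 4 each). Mkl1, its cofactor, had the smallest p of the list, at 51.3 ± 5.20 and 57.5 ± 11.8 CPM (edgeR adjusted p = 0.565), and the sign of its fold change turned on the log2 TPM scale. Myocardin, Myocd, was too low to be tested, at 0.164 ± 0.075 and 0.171 ± 0.060 CPM. Heterozygous means of the tested genes ran from 0.419 CPM for Foxs1 to 549 CPM for Mef2c, against 15.3 CPM for Acta2. The part that smooth muscle cells make up in these levels was not tested.

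For nitric oxide and calcium signalling in smooth muscle the median of 10 tested genes was -0.07, and 0 passed. Kcnma1, a calcium-activated potassium channel that neurons also make, had the smallest p, at 60.2 ± 10.99 and 48.8 ± 2.88 CPM (SD, n = 4 each, edgeR adjusted p = 0.252). Of 18 other pericyte genes 0 passed, with a median of -0.15, below 0 as for the 3 pericyte genes (-0.19). With 8 libraries 4 of the 18 had an unadjusted edgeR p under 0.05, all lower, where 8.9% of all genes did so. With 7 libraries 2 were lower and 1 higher at that p, which 19.5% of all genes reached. The smallest p of the 18 with 8 libraries was that of Notch3, a Notch receptor of smooth muscle cells and pericytes, at 13.8 ± 2.88 and 9.40 ± 1.49 CPM (edgeR adjusted p = 0.162).

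Among 20 genes of PDGF, Notch and TGF-beta signalling to mural cells the median was -0.16 with 8 libraries, and 1 gene passed with 7. That gene, Cyr61, a secreted matrix protein also called Ccn1, averaged 4.99 ± 0.47 CPM over the 4 heterozygous mice (SD) and 10.5 ± 1.20 CPM over homozygous replicates 2 to 4 (SD, n = 3). It rose by 1.07 on the log2 scale with 7 libraries (edgeR adjusted p = 0.0109), a call lost on leaving out homozygous replicate 3 (0.0538). With 8 libraries its log2 fold change was 0.91 (edgeR adjusted p = 0.1).

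Markers of other cells of the cord's vessels and coverings mostly had negative fold changes too, and with 8 libraries 0 of them passed. Of 15 endothelial markers 14 had a negative fold change, with a median of -0.41, and 8 had an unadjusted p under 0.05, all lower, where 8.9% of all genes did so. Their summed level was 294 to 431 CPM in the heterozygous and 228 to 358 CPM in the homozygous libraries, which overlapped, and none of the 15 was at 0 in any library. Tie1, an endothelial receptor, fell by 1.23 on the log2 scale with 7 libraries (edgeR adjusted p = 0.0483). That call was lost on leaving out any of heterozygous replicates 2, 3 and 4 or homozygous replicates 2 and 3, with adjusted p values up to 0.182. The part of endothelial RNA in the levels of the 10 genes was not tested.

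Of 12 markers of meningeal and perivascular fibroblasts 10 had a negative fold change, with a median of -0.84. With 8 libraries 6 had an unadjusted edgeR p under 0.05, all lower, where 8.9% of all genes did so. Groups did not overlap, with lower homozygous levels, for 4 of the 12, against 4.67% of all genes. The sums of the 12 markers overlapped, at 128 to 268 CPM in the heterozygous and 113 to 193 CPM in the homozygous libraries, and none was at 0. Col3a1, a fibrillar collagen, fell by 2.33 on the log2 scale with 7 libraries (edgeR adjusted p = 0.0498), a call lost on leaving out any of 6 libraries, the exception being heterozygous replicate 1; the adjusted p then reached 0.168. Schwann cells, which wrap the axons of the nerve roots, had the sums that differed most clearly. Their 12 markers summed to 238 to 706 CPM in the heterozygous and 121 to 188 CPM in the homozygous libraries, with no overlap and a median of -1.60 over the 10 tested. Of these 10, 9 had a negative fold change and 1 a positive one. With 8 libraries 6 were lower and 1 was higher at an unadjusted edgeR p under 0.05, which 16.8% of all genes reached. Of the 12 markers, 2 were at 0 in some library. Dhh, the hedgehog ligand of Schwann cells, fell by 3.51 on the log2 scale with 7 libraries (edgeR adjusted p = 0.0256), a call lost on leaving out heterozygous replicates 2, 3 or 4 or homozygous replicates 2 or 3 (up to 0.106). By limma-voom none of Tie1, Col3a1 and Dhh passed with 7 libraries (adjusted p = 0.0666, 0.0687 and 0.0631). The part of fibroblast and nerve root RNA in the levels of the 10 genes was not tested.

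Skeletal muscle markers, high in heterozygous replicate 1, did not pass. Their median log2 fold change was -2.33, and the smallest p was that of Myh4, a fast muscle myosin, at -2.62 with 8 libraries (edgeR adjusted p = 0.444) and 0.59 without heterozygous replicate 1. Spinal cord markers had a median of -0.30, and the smallest p was that of Gfap, the astrocyte filament, at 373 ± 44.6 and 704 ± 452 CPM (SD, n = 4 each, edgeR adjusted p = 0.329). With 7 libraries the list medians were -0.03 for transcription control, -0.10 for nitric oxide and calcium signalling, -0.10 for other pericyte genes and -0.20 for PDGF, Notch and TGF-beta signalling. For endothelial, fibroblast, Schwann cell, skeletal muscle and cord markers they were -0.43, -0.66, -1.5, -3.10 and -0.37. With 7 libraries the adjusted p was 0.0844 for Filip1l, 0.392 for Mkl1 and for Myh4, 0.282 for Kcnma1, 0.174 for Notch3 and 0.117 for Gfap, so none passed.

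**Figure D4:**
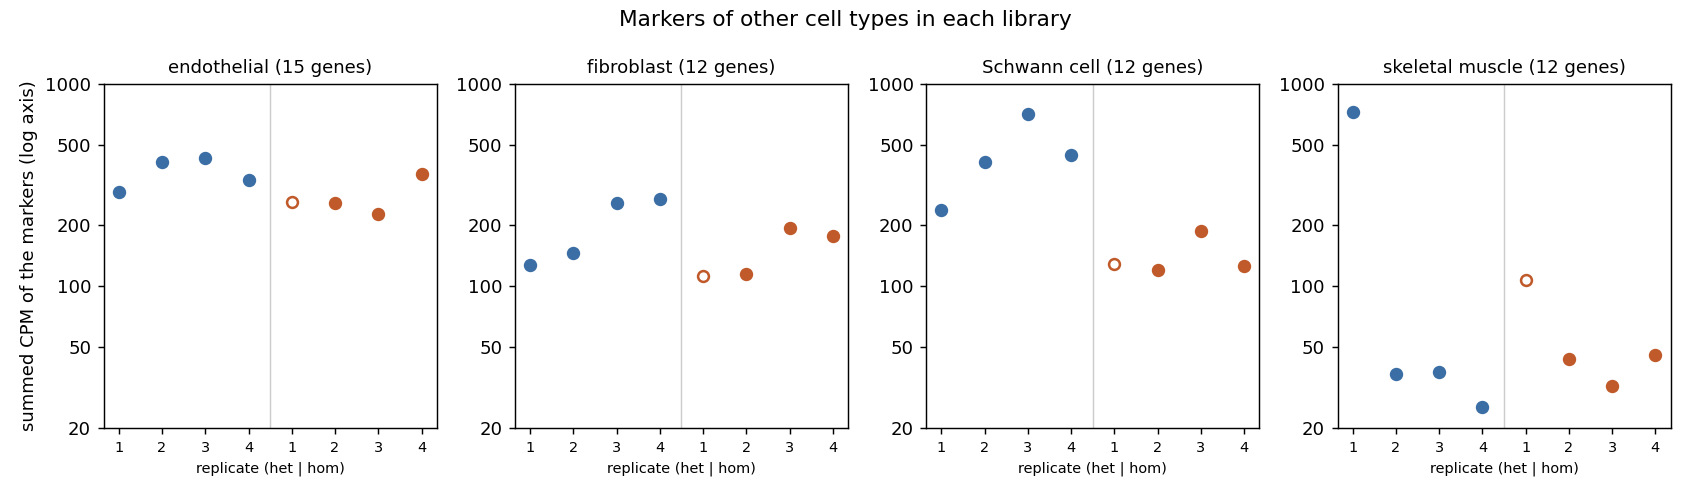
Summed CPM of marker lists of 4 other cell types in each library, on a log axis, with points coloured and marked as in the plot of levels. Schwann cell sums of the heterozygous libraries (238 to 706) lie above those of the homozygous ones (121 to 188), endothelial and fibroblast sums overlap, and skeletal muscle markers reach 726 in heterozygous replicate 1.

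Likeness of pattern was measured over the 8 libraries as Pearson's r between a gene's log2-CPM and the mean of the standardised log2-CPM of a set, over 13353 named genes; the libraries share the 2 groups, so a difference between the groups enters every r. The 6 genes most like the contractile set were Cdh5, Ptprb, Cav1, Hspa12b, Trim47 and Kank2, with r of 0.97 to 0.99, and r was 0.948 to 0.99 without the 2 libraries farthest from the median. Cdh5, the cadherin of endothelial junctions, was closest, at 13.3 ± 2.09 and 7.55 ± 1.39 CPM (SD, n = 4 each). Ptprb is an endothelial phosphatase and Cav1 the coat protein of caveolae, which are abundant in endothelial and smooth muscle cells.

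For the pericyte set the 6 closest were Aars, Cyp20a1, Tlr3, Eci1, Slc25a18 and Glis2, with r of 0.90 to 0.95. Without the 2 libraries farthest from the median their r was between -0.10 and 0.54, so this likeness rests on those 2 libraries. Among the 10 genes, Rgs5 followed the contractile mean with r = 0.99, closer than any single contractile gene, while Pdgfrb had r = 0.72 and Kcnj8 r = -0.12 with it. Within the contractile set, r with the mean of the other 6 was 0.97 for Acta2, 0.95 for Myl9, 0.90 for Myh11, 0.82 for Smtn, 0.67 for Cnn1, 0.58 for Tagln and -0.06 for Des. These are descriptions over 8 libraries, with no test.

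Since Smtn lies on the chromosome of Arf1, the genes around the 10 were listed. Within 250 kb, 112 pairs of a member and a tested neighbour were found, of which 0 passed with 8 libraries and 2 (1.79%) with 7, against 1.22% of all genes. Pla2g3, a secreted phospholipase A2 on the plus strand at chr11:3488284-3499350, ends 18.2 kb from Smtn and differed in the opposite direction. It was at 3.15, 3.59, 3.89 and 3.46 CPM in the heterozygous and at 5.98, 11.8, 7.62 and 8.84 CPM in the homozygous libraries, all above the heterozygous ones. Its log2 fold change was 1.28 with 8 libraries (SE 0.19, edgeR adjusted p = 0.0893), and it rose by 1.42 with 7 (SE 0.16, edgeR adjusted p = 0.00952), a call held in each of the 7 fits that left out 1 more library.

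Its span overlaps that of Inpp5j on the other strand, and the sources used here do not say whether counting used strand, so shared reads cannot be told apart. Inpp5j, an inositol phosphatase gene, had a log2 fold change of 0.02, and Rnf185, a ubiquitin ligase gene, one of 0.11 (edgeR adjusted p = 0.949 and 0.356). Selm, a selenoprotein gene whose end lies 172 bases from Smtn, had a log2 fold change of 0.28 (SE 0.08, edgeR adjusted p = 0.156), and 0.32 with 7 libraries (0.0844). The other neighbour that passed was Zfp810, a zinc finger gene 167 kb from Cnn1 (chr9:22276748-22307648, minus strand). It rose by 0.65 on the log2 scale with 7 libraries (SE 0.12, edgeR adjusted p = 0.0372), a call lost without heterozygous replicates 3 or 4 or homozygous replicates 2 or 3, where the adjusted p reached 0.166.

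**Figure D5:**
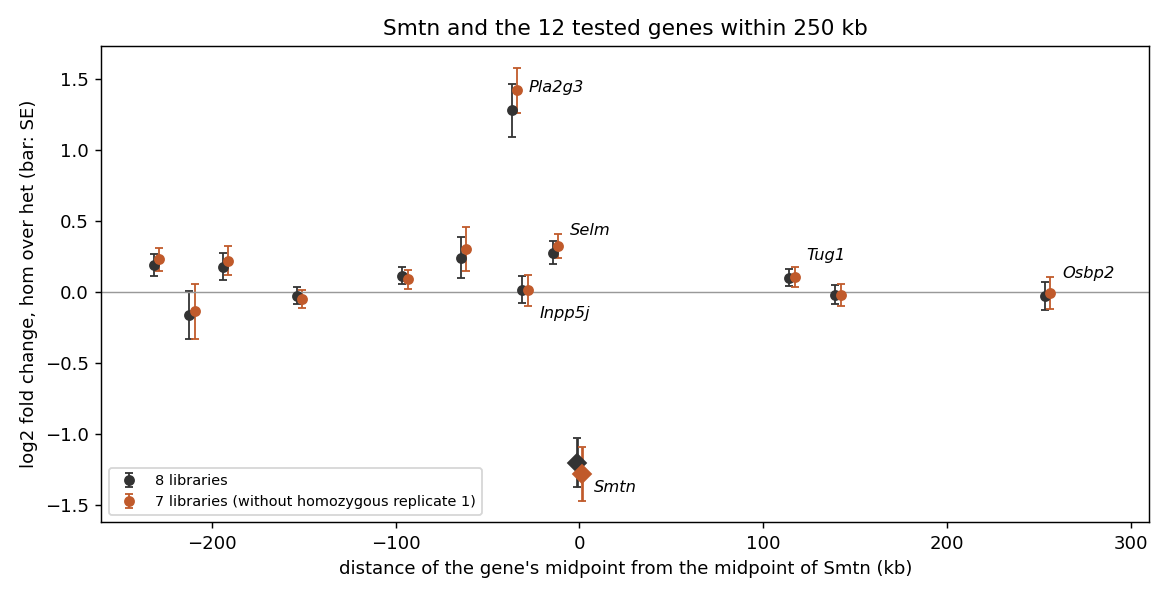
Log2 fold change, homozygous over heterozygous (vertical axis, bars for the SE), of Smtn (diamonds) and the 12 tested genes whose spans lie within 250 kb of it (circles), by the distance of their midpoint from that of Smtn in kb. Black is the fit with 8 libraries and orange the fit without the library labelled homozygous replicate 1. Smtn lies at -1.20 and -1.28, Pla2g3 at 1.28 and 1.42, and the nearest gene, Selm, at 0.28 and 0.32.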

How the data were processed

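Each of the 8 libraries holds spinal cord RNA of 1 mouse (4 heterozygous, 4 homozygous by label). Reads were processed with cutadapt, STAR, Picard and RSEM on mm10, per the submitters' processing notes; the sources used here name no versions, annotation or use of strand. The authors deposited RSEM expected counts and TPM per gene, per the file headers. The authors' deposited table gives log2 fold changes and p-values with false discovery rates, per the file headers. Other deposited values are the percent of ribosomal bases and the RNA integrity number of each library.

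Expected counts were rounded and tested over all genes with edgeR 4.0.16 in R 4.3.3 (TMM, filterByExpr with a minimum count of 10, robust quasi-likelihood fit, Benjamini-Hochberg, threshold 0.05), on all 8 libraries and on the 7 without the library labelled homozygous replicate 1. CPM are TMM-scaled; log2-CPM use a prior count of 2. Replicate numbers follow accession order and pair nothing. Library totals of 26321522 to 37879426 leave genes under 1 CPM with few counts. Alternatives used other scaling (median-of-ratios), other filters (none, or at least 1 CPM), other tests (DESeq2 1.42.0, limma-voom with limma 3.58.1, edgeR without the robust option, limma on log2(TPM + 1)), or left out each library. After seeing the data, the 6 libraries of the authors' gene tables were added as an alternative. Scripts were tested on simulated counts. Python 3.11.15, pandas 2.3.3, scipy 1.17.1 and matplotlib 3.10.9 did the rest.

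The 10 genes, the lists and the 7-library set were chosen with earlier results of these data known. Named were the 10 genes, Arf1, from each list the genes past the threshold in either fit or else the one with the smallest p, neighbours within 250 kb past the threshold, protein-coding genes within 100 kb of Smtn, and the 6 genes most like each set; Xist, Y-linked and predicted genes were left out. Srf, Myocd and other named genes outside this rule were chosen after their values were seen. Of 47643 gene rows 47224 matched GENCODE M21 (GRCm38), used for positions. The remaining deposited files and columns, such as FPKM, were not used.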

Additional observations from a re-analysis of the deposited data

Results flagged for a closer look

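Of 46 groups of 4 libraries tested for a library far from the other 3 by Dixon's criterion, 7 were picked out, where chance picks about 1 in 20 groups. Heterozygous replicate 1 was the one in 4 of them: Des at 29.2 CPM against a next highest of 3.22, the skeletal muscle markers at a sum of 726 CPM against 37.9, the other smooth muscle contractile and regulatory genes at 784 CPM against 611, and the genes of PDGF, Notch and TGF-beta signalling at 373 CPM against 335. The list of other smooth muscle genes holds Tpm1 and Tpm2, which skeletal muscle also makes.

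The other 3 were in the homozygous group. The contractile minus pericyte mean of homozygous replicate 4 was -2.14, above the next at -2.60. The other pericyte genes summed to 500.2 CPM in homozygous replicate 2, below the next at 554 CPM. Of that sum 332 CPM came from Rgs4 alone, which was at 345 to 408 CPM in the other homozygous libraries. The Schwann cell markers summed to 188 CPM in homozygous replicate 3, above the next at 129 CPM.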

How the results depend on the processing

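No paired analysis was possible because the labels carry animal numbers that the groups do not share. With 8 libraries, where edgeR called 0 of the 10 genes and 0 of all genes (5 and 2769 at an unadjusted p under 0.05), it called 1 and 63 with no filter on low counts, DESeq2 called 4 and 679, and the 6 libraries of the authors' gene tables gave 3 and 232. Leaving out 1 library gave 0 to 3 of the 10 and 0 to 202 of all genes, above 0 only without heterozygous replicate 1 or the library labelled homozygous replicate 1. With 7 libraries, where edgeR called 1 and 202, the counts were 1 and 444 with no filter, 5 and 1083 with DESeq2, 1 and 109 with limma-voom, 4 and 1152 on log2(TPM + 1), and 3 and 232 in the 6 libraries. Leaving out 1 more gave 0 to 3 and 6 to 402. On log2(TPM + 1) the calls with 7 libraries were 61 higher and 1091 lower, against 91 and 111, as the median of all genes moved to -0.17. On that scale the contractile minus pericyte difference was -0.55 with 8 libraries and -0.49 with 7, Kcnj8 turned to -0.0163 and -0.0905, and Mkl1 to -0.0153 with 8. Leaving out 1 library moved Des between -1.97 and 0.20 and Myh4 between -3.52 and 0.59 with 8 libraries, and Tagln between -0.74 and 0.25 with 7. The cause of these changes was not tested. Depth limits Cnn1 most, at 7 to 46 counts per library.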
